A study of Mus musculus with 6 samples.

Results

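The 38 genes of sterol and fatty acid synthesis described here were taken by symbol from the deposited table, where all 38 were found among 18849 genes. They hold 18 enzymes of the sterol branch, from acetoacetyl-CoA to cholesterol, 13 enzymes of the fatty acid branch, from acetyl-CoA to long unsaturated fatty acyl-CoA, and 7 genes outside both. Those 7 are the transcription factors Srebf1 and Srebf2 with their partners Scap, Insig1 and Insig2, the sterol carrier Stard4 and the phosphatidate phosphatase Lpin1. Whole-kidney RNA was sequenced in 3 knockout and 3 floxed libraries from male C57BL/6 mice, 8 weeks old, after 14 days of unilateral ureteral obstruction (UUO), in which a tied ureter damages the tubules and scars the kidney. Knockout mice carried a loxP-flanked c-Abl gene (Abl1) together with Ksp-Cre, and are labelled as c-Abl knockdown. Floxed mice carried the loxP sites, with no Cre named for them in the design text, and their genotype label reads WT. All 6 libraries came from obstructed kidneys, and unobstructed kidneys were not analysed here. Ksp-Cre is driven by the promoter of kidney-specific cadherin in tubule epithelium, so cells outside that epithelium keep Abl1. Whole-kidney values do not show which parts of the tubule lost it. The comparison asks how loss of c-Abl from tubule cells changes gene expression in the fibrotic kidney.

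Cholesterol and fatty acids are both built from cytosolic acetyl-CoA. In the sterol branch acetyl-CoA is condensed to mevalonate, then to farnesyl and squalene units, and squalene is closed to a ring and trimmed to cholesterol. In the fatty acid branch acetyl-CoA is carboxylated to malonyl-CoA, strung into palmitate, and then elongated and desaturated. The transcription factors encoded by Srebf2 and Srebf1 drive the sterol and the fatty acid genes, mainly in that order. They stay in the endoplasmic reticulum while sterols are plentiful, because the retention proteins Insig1 and Insig2 hold their escort protein Scap there. In the kidney, proximal tubule cells mostly burn fatty acids for energy, and their oxidation is known to be low in fibrosis.

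Expression is given as FPKM, a fragment count scaled by gene length and by mapped fragments of the library, as the authors deposited it. Values are listed for replicates 1, 2 and 3 of each group in that order, and means carry the SD over 3 libraries. Log2 fold changes are knockout minus floxed of log2(FPKM + 1), so changes of low genes come out too small. Their tests come from limma over 13390 genes with at least 1 FPKM in at least 3 of the 6 libraries, adjusted over all of those genes by Benjamini-Hochberg with a threshold of 0.05. All 38 members passed the filter on low values. The spacing of low values in short transcripts gave an approximate depth of 16100000 to 17800000 fragments per library, so that a value of 1 FPKM for 2 kb of transcript rests on some 32.2 to 35.6 fragments. Abl1 itself read 10.46, 14.45 and 12.91 FPKM in knockout and 18.16, 15.93 and 17.33 FPKM in floxed libraries. Its groups did not overlap, but the limma test was not passed (log2 fold change -0.42, SE 0.144, adjusted p = 0.144). A two-sided exact permutation test gave p = 0.1, its lower limit with 3 libraries a group. Knockout replicate 3 lay nearer to the floxed libraries than the other knockouts did, with Pearson correlations across genes of 0.968 to 0.969 to floxed libraries and 0.941 and 0.960 to knockout replicates 1 and 2. Counts are therefore also given without it.

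The promoters of the members were compared because these genes are known to share the binding sites of a few factors. A promoter window here is RefSeq sequence of build GRCm38.p6, from 250 bases before to 50 bases after an annotated start site, and 40 windows were held for 31 of the 38 members, all but Fdps, Fdft1, Sqle, Stard4, Fads1, Scd1 and Scd2. The sterol regulatory element was searched as TCACNCCAC, the box of its partner factor NF-Y as CCAAT and the box of Sp1 as GGGCGG, each on both strands. In the sterol branch 14 of 18 windows (77.8%) held a NF-Y box and 15 (83.3%) a Sp1 box. In the fatty acid branch 6 of 11 windows (54.5%) held a NF-Y box, and 6 of 11 a Sp1 box. Among all 13667 windows of genes tested the shares were 37.3% for the NF-Y box and 60.1% for the Sp1 box, and over all 32851 RefSeq windows they were 37.4% and 35.7%. The sterol regulatory element in this strict spelling occurred in 1 member window, that of Hmgcs1, and in 1.16% of windows of genes tested. A repeat bound by the sterol receptor LXR, spelled AGGTCA, 4 free bases and AGGTCA, was found in 0 member windows and 0 windows of genes tested. A match describes letters in a window and says nothing about binding.

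Windows are shown read from the 5′ to the 3′ end of the gene's strand. They are those of Hmgcs1, the most abundant member, of Nsdhl and Hsd17b7, and of Fasn and Acly, whose means were lower in knockout kidneys. Nsdhl and Hsd17b7 are among the 4 sterol enzymes whose groups did not overlap. The windows of the others, Acat2 and Mvk, are not shown. Mvk held NF-Y and Sp1 boxes, whereas Acat2 held a Sp1 box and no NF-Y box. In the sterol branch 14 of 15 genes with a window held a NF-Y box. Capitals mark the sterol regulatory element, NF-Y boxes and Sp1 boxes, and no base lay in more than 1 kind of motif. The Hmgcs1 window (chr13:119690101-119690400, plus strand) held the sterol regulatory element starting at position -137 from the start site, with 4 NF-Y boxes and 3 Sp1 boxes.
Hmgcs1: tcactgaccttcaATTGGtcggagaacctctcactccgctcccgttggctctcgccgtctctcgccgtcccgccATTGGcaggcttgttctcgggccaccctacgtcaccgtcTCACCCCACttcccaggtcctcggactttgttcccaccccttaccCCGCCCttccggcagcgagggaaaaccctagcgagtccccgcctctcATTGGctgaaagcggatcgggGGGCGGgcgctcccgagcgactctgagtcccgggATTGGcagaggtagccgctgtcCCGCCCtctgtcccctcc
The Nsdhl window (chrX:72918271-72918570, plus strand) held 4 NF-Y boxes and 1 Sp1 box.
Nsdhl: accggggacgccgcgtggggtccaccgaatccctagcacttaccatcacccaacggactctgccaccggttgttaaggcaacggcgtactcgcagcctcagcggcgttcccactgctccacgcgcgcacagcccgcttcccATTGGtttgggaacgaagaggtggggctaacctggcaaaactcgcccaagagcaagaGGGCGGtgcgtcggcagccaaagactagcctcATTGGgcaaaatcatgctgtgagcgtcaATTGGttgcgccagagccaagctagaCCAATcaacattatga
The Hsd17b7 window (chr1:169969156-169969455, minus strand) held 3 of each.
Hsd17b7: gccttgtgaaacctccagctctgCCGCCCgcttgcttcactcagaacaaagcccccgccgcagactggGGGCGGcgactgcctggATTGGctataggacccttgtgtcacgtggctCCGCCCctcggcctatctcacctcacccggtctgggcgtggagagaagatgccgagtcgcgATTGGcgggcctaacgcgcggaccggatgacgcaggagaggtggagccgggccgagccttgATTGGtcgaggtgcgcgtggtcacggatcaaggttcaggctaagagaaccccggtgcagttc
The Fasn window (chr11:120824498-120824797, minus strand) held 3 NF-Y boxes, of which 2 share bases on opposite strands, and 0 Sp1 boxes.
Fasn: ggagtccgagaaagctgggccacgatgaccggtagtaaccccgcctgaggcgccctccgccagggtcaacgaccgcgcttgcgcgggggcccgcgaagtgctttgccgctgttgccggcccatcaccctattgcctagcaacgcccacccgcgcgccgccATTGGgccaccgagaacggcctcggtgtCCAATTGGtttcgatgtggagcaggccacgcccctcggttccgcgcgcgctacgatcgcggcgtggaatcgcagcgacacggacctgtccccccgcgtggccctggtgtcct
The Acly window (chr11:100527951-100528250, minus strand) held 1 NF-Y box and 4 Sp1 boxes.
Acly: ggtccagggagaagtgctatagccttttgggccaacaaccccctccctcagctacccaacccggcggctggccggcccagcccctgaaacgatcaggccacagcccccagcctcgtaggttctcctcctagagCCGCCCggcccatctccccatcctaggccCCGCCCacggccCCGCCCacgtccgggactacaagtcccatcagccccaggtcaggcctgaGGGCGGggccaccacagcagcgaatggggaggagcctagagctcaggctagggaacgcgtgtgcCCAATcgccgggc

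No member passed the limma threshold, against 0.0672% of all genes tested, of which 0.0299% were higher and 0.0373% lower in knockout kidneys. The lowest adjusted p among members was 0.0723, for Scd1. With array weights in limma 3 of 38 members passed, Scd1, Stard4 and Acat2, where 1456 of all 13390 genes tested passed. An unadjusted limma p under 0.05 was met by 6 members, all of them higher in knockout kidneys: Scd1, Acat2, Stard4, Dhcr7, Acacb and Ebp. That is 15.8% of members, where 24.7% of all genes tested met this p, 8.38% higher and 16.3% lower. In 8 members every knockout library lay above every floxed library, which are Acat2, Mvk, Nsdhl, Hsd17b7, Insig2, Stard4, Elovl7 and Scd1. In 0 members did every knockout library lie below. Over all genes tested the groups did not overlap for 31.7%, with knockout higher for 10.0% and lower for 21.7%. Log2 fold changes were above 0 for 28 of 38 members (73.7%), against 34.6% of all genes tested, with a median of 0.16 over members and -0.12 over all genes tested. These shares describe the list beside all genes and are no test of it.

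**Figure D1:**
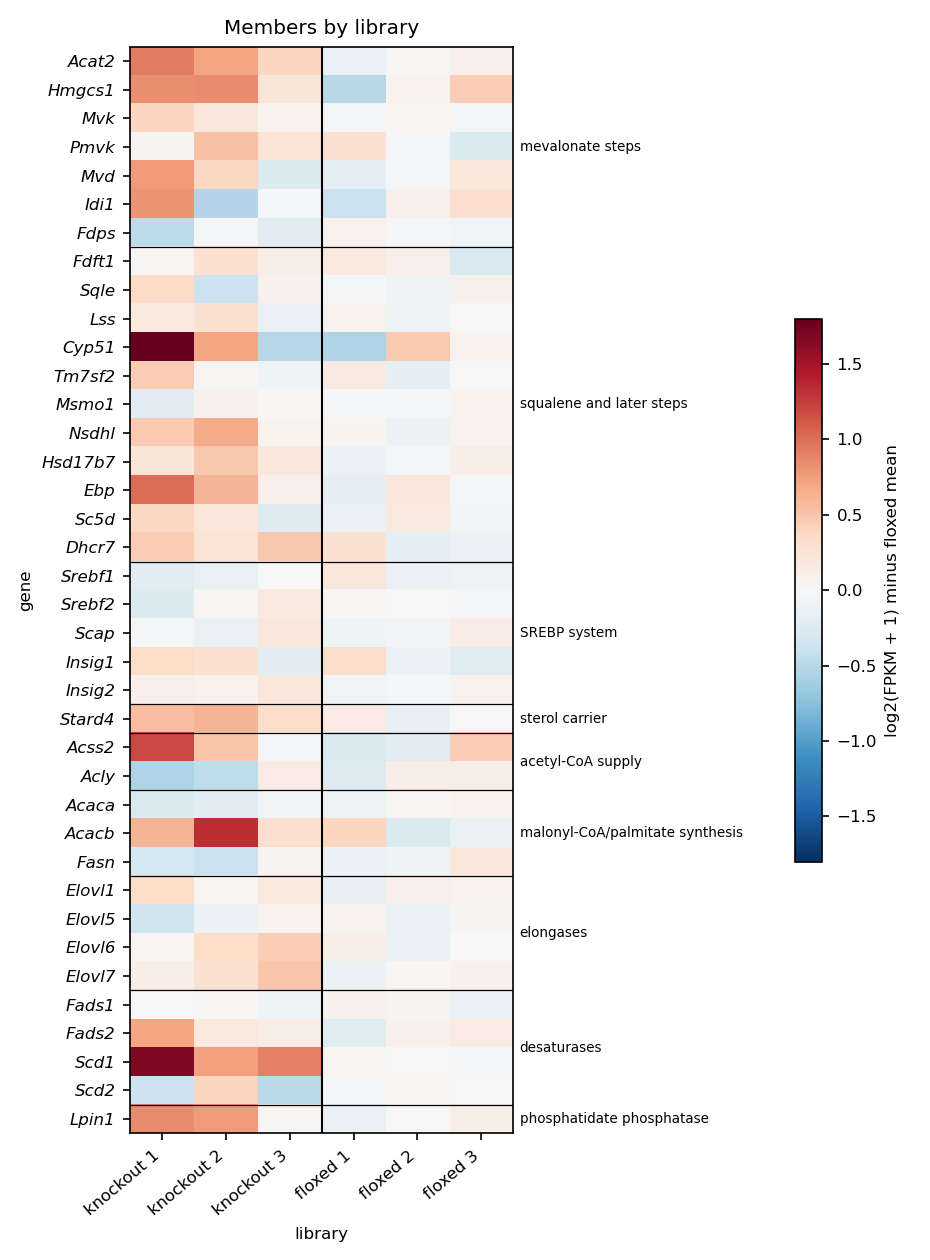
Rows are the 38 members in pathway order, columns the 3 knockout and 3 floxed libraries, and colour gives log2(FPKM + 1) minus the floxed mean of that gene (red above, blue below). Knockout replicates 1 and 2 hold most of the strong red cells, such as Cyp51 at 57.87 FPKM and Acacb at 4.73 FPKM, while in knockout replicate 3 that red is mostly paler, with Scd1 at 21.64 FPKM among the exceptions.

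Sterol and fatty acid enzymes were first set side by side. Of the 18 sterol enzymes 16 had a log2 fold change above 0, with a median of 0.25, and 7 of the 13 fatty acid enzymes did, with a median of 0.18. Measured from the floxed mean of each gene, the sterol median was 0.42, 0.28 and 0.07 in knockout and -0.02, -0.02 and 0.03 in floxed libraries. The fatty acid median stood at 0.03, 0.18 and 0.12 in knockout and at -0.10, 0.03 and 0.06 in floxed libraries. Knockout replicate 1 thus had the highest sterol median and the lowest fatty acid median of the 3 knockouts. Summed over the 18 sterol enzymes, the level was 503.5, 442.9 and 335.0 FPKM in knockout and 284.6, 327.6 and 346.0 FPKM in floxed libraries, so the third knockout fell inside the floxed range. Summed over the 13 fatty acid enzymes it was 363.9, 323.3 and 313.4 FPKM in knockout and 273.5, 291.4 and 310.4 FPKM in floxed libraries. FPKM centred all genes at -0.12, and relative to that median the sterol branch stood at 0.37 and the fatty acid branch at 0.30. Under median-ratio, quantile and TPM scaling these distances were 0.37, 0.40 and 0.39 for the sterol branch and 0.31, 0.13 and 0.31 for the fatty acid branch. Without knockout replicate 1 the distances were 0.18 for the sterol branch and 0.17 for the fatty acid branch, and without floxed replicate 1 they were 0.30 and 0.18. The difference between the branches was not tested.

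**Figure D2:**
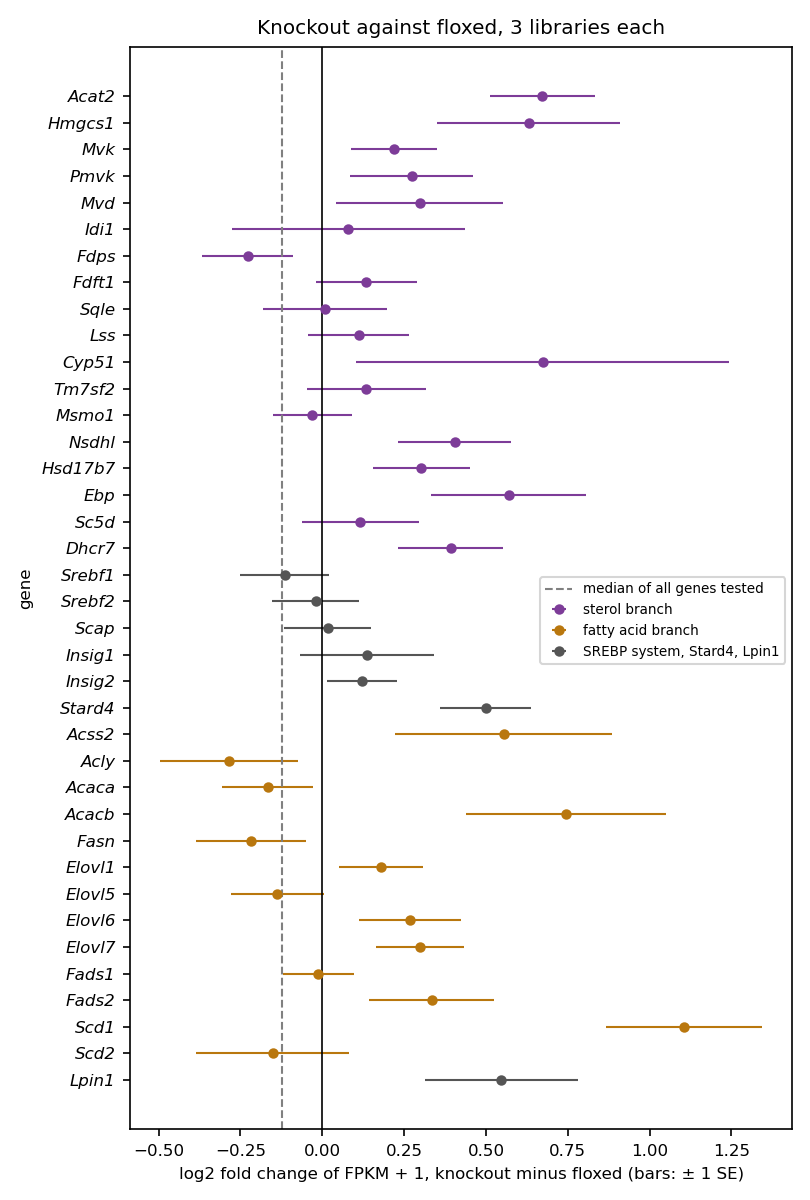
Points give the log2 fold change of each member, knockout minus floxed, with bars of 1 SE from limma on 3 libraries per group, and the dashed line marks the median of all genes tested at -0.12. Sterol enzymes lie between -0.23 (Fdps) and 0.67 (Cyp51 and Acat2), and fatty acid enzymes between -0.29 (Acly) and 1.11 (Scd1).

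Position against the floxed range shows how far single knockout libraries carry the pattern. Of the 18 sterol enzymes 14, 13 and 6 lay above all floxed libraries in knockout replicates 1, 2 and 3, and 2, 2 and 4 lay below them. Over all genes tested 24.0%, 24.2% and 25.5% lay above and 57.1%, 47.1% and 32.4% below. For the 13 fatty acid enzymes 6, 7 and 5 lay above and 5, 3 and 1 below. Inside the floxed range lay 2, 3 and 8 of the 18 sterol enzymes (11.1%, 16.7% and 44.4%), and 18.9%, 28.7% and 42.1% of all genes tested, so the share inside was higher in knockout replicate 3 for all genes as well.

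The mevalonate route begins with Acat2, the cytosolic thiolase that joins acetyl-CoA units, and it had the smallest p of the sterol branch. It read 46.05, 39.45 and 31.38 FPKM in knockout and 21.73, 24.31 and 25.47 FPKM in floxed kidneys. The groups did not overlap, and the means were 39.0 ± 7.35 FPKM in knockout and 23.8 ± 1.91 FPKM in floxed kidneys, a ratio of 1.63 (log2 fold change 0.67, SE 0.16, limma adjusted p = 0.0848). Acat3, a close copy of it, averaged 34.2 ± 7.32 FPKM in knockout and 29.1 ± 3.83 FPKM in floxed kidneys, and reads of the pair could be divided between them in a way that these values do not show. Hmgcs1, which makes HMG-CoA, was the most abundant of all 38 members at a mean of 109 FPKM over 6 libraries. It read 148.12, 149.56 and 96.18 FPKM in knockout and 58.13, 86.61 and 112.61 FPKM in floxed kidneys, a log2 fold change of 0.63 (SE 0.279, limma adjusted p = 0.217). Both groups were broad, with knockout replicate 3 below floxed replicate 3.

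Mvk, Pmvk and Mvd carry mevalonate to isopentenyl diphosphate. Mvk, mevalonate kinase, read 8.30, 7.20 and 6.45 FPKM in knockout and 6.04, 6.26 and 6.04 FPKM in floxed kidneys. These groups did not overlap, although knockout replicate 3 was only just above floxed replicate 2 and the limma adjusted p was 0.327. Pmvk, the next kinase, averaged 12.5 ± 2.27 FPKM in knockout and 10.2 ± 2.04 FPKM in floxed kidneys. Mvd, the decarboxylase, read 25.79, 19.46 and 12.33 FPKM in knockout and 13.13, 14.44 and 17.06 FPKM in floxed kidneys, its knockout range spanning the floxed one. Idi1, the isomerase that follows, was among the least abundant members, and its replicates were scattered at 5.24, 1.47 and 2.46 FPKM in knockout and 1.73, 2.79 and 3.37 FPKM in floxed kidneys. Fdps, which assembles farnesyl diphosphate, was the lowest member of the branch by fold change, at 18.17, 25.12 and 22.26 FPKM in knockout and 26.78, 25.17 and 24.73 FPKM in floxed kidneys (log2 fold change -0.23, SE 0.14, limma adjusted p = 0.339).

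At the squalene steps the group means lay close together. Fdft1, squalene synthase, averaged 18.8 ± 1.82 FPKM in knockout and 17.1 ± 2.84 FPKM in floxed kidneys. Its annotated exons overlap those of the cathepsin gene Ctsb on the opposite strand over up to 774 bases, and Ctsb averaged 647 FPKM, so reads without strand could be shared. Sqle, the squalene epoxidase that is often rate-limiting, read 37.35, 22.16 and 30.98 FPKM in knockout and 29.01, 28.08 and 30.92 FPKM in floxed kidneys (log2 fold change 0.01, SE 0.19). Its knockout libraries lay on both sides of the floxed ones. Lss, which closes the sterol ring, was low at 3.49 ± 0.618 FPKM in knockout and 3.13 ± 0.195 FPKM in floxed kidneys. The ratio of Hmgcs1 to Sqle was 3.97, 6.75 and 3.10 in knockout and 2.0, 3.08 and 3.64 in floxed libraries, so the synthase and the epoxidase did not keep one proportion.

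After ring closure the members differed from step to step. Cyp51, the lanosterol demethylase, had the largest SE of the branch on the log2 scale, with 57.87, 26.03 and 10.56 FPKM in knockout and 10.39, 22.04 and 16.30 FPKM in floxed kidneys. The knockout range covered nearly the whole floxed range and reached far above it, and the log2 fold change of 0.67 had an SE of 0.569 (limma adjusted p = 0.474). Leaving out knockout replicate 1 gave 0.09 and leaving out knockout replicate 3 gave 1.27, so its size rested on single libraries. Exons of Cyp51 overlap those of Akap9 on the opposite strand over up to 166 bases. Tm7sf2, a sterol reductase, averaged 6.75 ± 1.59 FPKM in knockout and 5.99 ± 0.795 FPKM in floxed kidneys, and Msmo1, the methylsterol oxidase, 15.1 ± 1.59 FPKM in knockout and 15.4 ± 0.584 FPKM in floxed kidneys.

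Nsdhl, Hsd17b7 and Ebp act next, on demethylation and on shifting the ring double bond. Nsdhl read 16.90, 19.60 and 12.54 FPKM in knockout and 12.30, 11.01 and 12.46 FPKM in floxed kidneys (log2 fold change 0.41, SE 0.173, limma adjusted p = 0.206). The groups were apart only by the small gap between knockout replicate 3 and floxed replicate 3. Hsd17b7, a keto-reductase of the same steps, read 4.04, 5.07 and 3.95 FPKM in knockout and 3.01, 3.27 and 3.71 FPKM in floxed kidneys. Ebp, the sterol isomerase, read 53.38, 40.33 and 27.94 FPKM in knockout and 22.93, 30.24 and 25.62 FPKM in floxed kidneys, with the third knockout inside the floxed range (log2 fold change 0.57, SE 0.237, limma adjusted p = 0.199). Sc5d, the desaturase that follows, averaged 14.2 ± 3.06 FPKM in knockout and 12.8 ± 1.38 FPKM in floxed kidneys. Dhcr7, the reductase at the end of one arm of the route, read 12.36, 10.49 and 12.57 FPKM in knockout and 10.81, 7.74 and 7.93 FPKM in floxed kidneys (log2 fold change 0.39, SE 0.16, limma adjusted p = 0.192). Here the third knockout was the highest library, unlike in Ebp or Nsdhl.

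**Figure D3:**
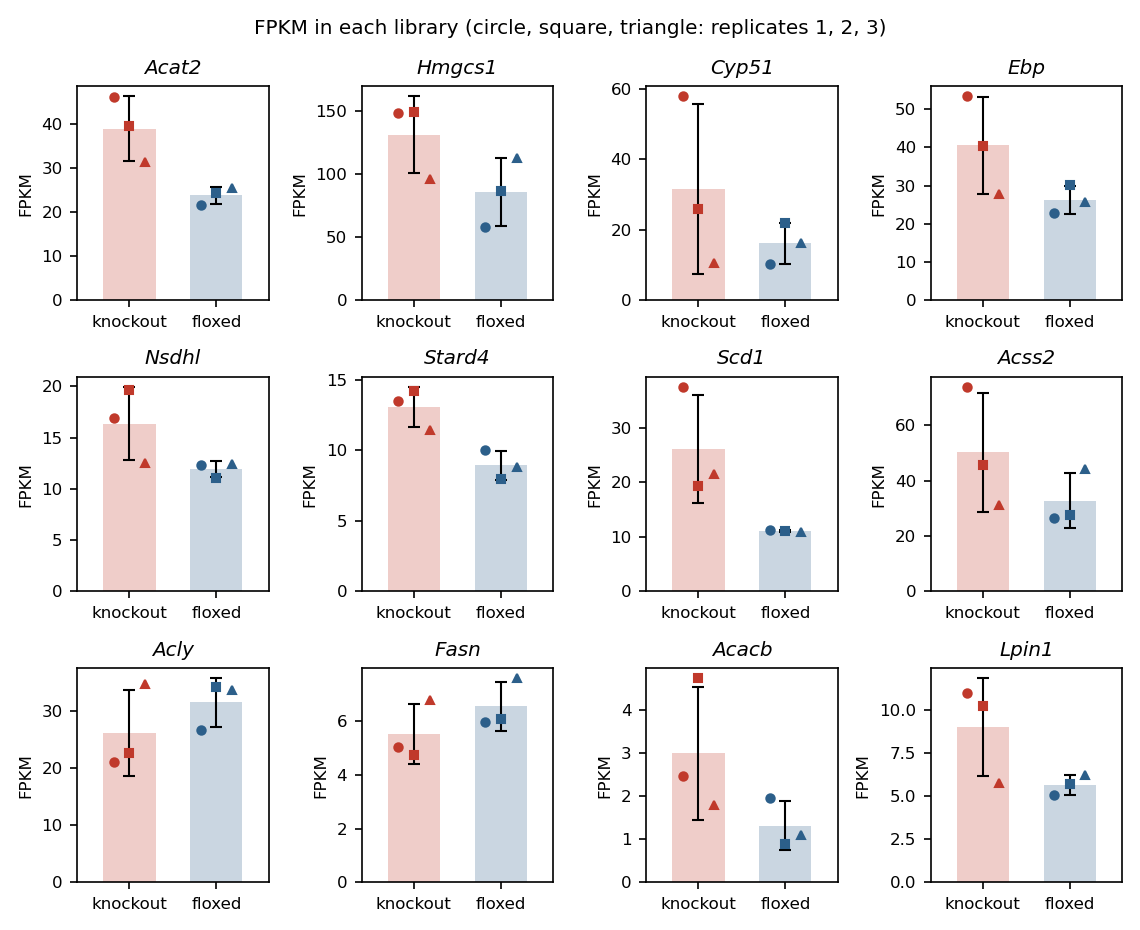
FPKM of 12 members in each library, with knockout left of floxed, bars at group means, error bars of 1 SD over 3 libraries, and symbols for the replicate number. Acat2, Stard4 and Scd1 show groups that do not meet, whereas for Hmgcs1, Cyp51, Ebp, Acss2 and Lpin1 knockout replicate 3 falls within the floxed range.

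Among the regulators of both branches the group means also lay close together. Srebf2 read 17.58, 21.51 and 23.63 FPKM in knockout and 21.32, 21.15 and 20.74 FPKM in floxed kidneys (log2 fold change -0.02, SE 0.133). Srebf1 read 11.38, 12.00 and 13.28 FPKM in knockout and 15.45, 12.22 and 12.43 FPKM in floxed kidneys (log2 fold change -0.12, SE 0.136). Knockout replicate 1 was the lowest library for both factors while it was the highest for many sterol enzymes. The transcript level of these factors does not show how much of the protein is cut and active. Scap read 17.34, 16.20 and 20.54 FPKM in knockout and 16.70, 17.03 and 19.61 FPKM in floxed kidneys. Scaling moved these genes together with all others. Median-ratio scaling put the median of all genes at 0.001, Srebf2 at 0.11 and Srebf1 at 0.01, and TPM scaling put the median of all genes at -0.18 and Scap at -0.04. Insig1, itself a target of the factors, read 11.89, 11.32 and 7.90 FPKM in knockout and 11.70, 8.54 and 7.80 FPKM in floxed kidneys. Insig2, a second retention protein under other control, read 20.52, 20.30 and 22.44 FPKM in knockout and 18.67, 19.09 and 20.16 FPKM in floxed kidneys, without overlap but with a log2 fold change of 0.12 (SE 0.106, limma adjusted p = 0.488).

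Stard4, which carries cholesterol between membranes and is also a sterol-responsive gene, read 13.52, 14.20 and 11.48 FPKM in knockout and 10.03, 7.97 and 8.85 FPKM in floxed kidneys. All 3 knockout libraries were above all floxed ones, with a ratio of means of 1.46 (log2 fold change 0.50, SE 0.139, limma adjusted p = 0.106).

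In the fatty acid branch the sources of acetyl-CoA differed in direction of their means. Acss2, which makes acetyl-CoA from acetate, read 73.72, 45.61 and 31.35 FPKM in knockout and 26.49, 27.60 and 44.24 FPKM in floxed kidneys (log2 fold change 0.55, SE 0.331, limma adjusted p = 0.327). Acly, which makes it from citrate, read 21.09, 22.67 and 34.89 FPKM in knockout and 26.68, 34.21 and 33.84 FPKM in floxed kidneys (log2 fold change -0.29, SE 0.21, limma adjusted p = 0.415). In knockout replicates 1 and 2 Acss2 lay above and Acly below every floxed library, and in replicate 3 Acss2 lay inside the floxed range and Acly just above it. The ratio of Acss2 to Acly was 3.50, 2.01 and 0.899 in knockout and 0.993, 0.807 and 1.31 in floxed libraries.

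Malonyl-CoA and palmitate synthesis was expressed at a low level. Fasn, fatty acid synthase, read 5.02, 4.74 and 6.78 FPKM in knockout and 5.96, 6.08 and 7.58 FPKM in floxed kidneys (log2 fold change -0.22, SE 0.169, limma adjusted p = 0.436). Acaca, the cytosolic acetyl-CoA carboxylase, read 2.21, 2.35 and 2.73 FPKM in knockout and 2.59, 2.94 and 3.01 FPKM in floxed kidneys. The Acaca log2 fold change of -0.17 was 0.08 under quantile normalization, where the median of all genes was -0.005. For both genes replicates 1 and 2 of the knockout were under all floxed libraries and replicate 3 was not. Acacb, the carboxylase at the mitochondrial surface whose product restrains fatty acid uptake into mitochondria, was the least abundant member, at 2.46, 4.73 and 1.79 FPKM in knockout and 1.96, 0.90 and 1.09 FPKM in floxed kidneys. Its ratio of means was 2.27 (log2 fold change 0.75, SE 0.305, limma adjusted p = 0.194), and knockout replicate 3 overlapped floxed replicate 1. The ratio of Acacb to Acaca was 1.11, 2.01 and 0.656 in knockout and 0.757, 0.306 and 0.362 in floxed libraries.

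Among the elongases, Elovl1, which extends very long chains, was the second most abundant member at 53.9 ± 5.80 FPKM in knockout and 47.4 ± 4.19 FPKM in floxed kidneys. Elovl5, which extends polyunsaturated chains, averaged 34.9 ± 5.20 FPKM in knockout and 38.3 ± 2.73 FPKM in floxed kidneys. Elovl6, which extends palmitate, read 4.51, 5.80 and 6.32 FPKM in knockout and 4.84, 3.98 and 4.39 FPKM in floxed kidneys. Elovl7 read 20.18, 22.50 and 26.37 FPKM in knockout and 17.01, 18.87 and 19.48 FPKM in floxed kidneys, without overlap (log2 fold change 0.30, SE 0.134, limma adjusted p = 0.223). In Elovl6 and Elovl7 knockout replicate 3 was the highest library, unlike in Acat2, Ebp or Acss2.

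The desaturases held the member with the largest fold change. Scd1, the stearoyl-CoA desaturase that makes oleate, read 37.48, 19.26 and 21.64 FPKM in knockout and 11.35, 11.00 and 10.96 FPKM in floxed kidneys. The floxed libraries had an SD of 0.215 FPKM and every knockout library was well above them, with a ratio of means of 2.35 (log2 fold change 1.11, SE 0.238, limma adjusted p = 0.0723). Scd2, a close relative, read 24.16, 42.34 and 22.39 FPKM in knockout and 30.84, 32.48 and 31.85 FPKM in floxed kidneys, with knockout libraries on both sides. The ratio of Scd1 to Scd2 was 1.55, 0.455 and 0.967 in knockout and 0.368, 0.339 and 0.344 in floxed libraries, and here too the groups did not overlap. Reads in the stretches that the pair share cannot be assigned from these values. Fads1 and Fads2 desaturate polyunsaturated chains. Fads1 averaged 36.5 ± 1.33 FPKM in knockout and 36.9 ± 2.73 FPKM in floxed kidneys, while Fads2 read 46.79, 32.14 and 30.71 FPKM in knockout and 24.16, 29.80 and 31.39 FPKM in floxed kidneys.

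Lpin1, which turns phosphatidate into diacylglycerol and also acts as a nuclear coregulator, read 10.98, 10.24 and 5.75 FPKM in knockout and 5.07, 5.68 and 6.19 FPKM in floxed kidneys. Knockout replicates 1 and 2 were above all floxed libraries and replicate 3 was among them (log2 fold change 0.55, SE 0.233, limma adjusted p = 0.206).

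With knockout replicate 3 left out, limma called 7 of 38 members (18.4%), against 24.8% of all 13268 genes tested in that fit, with 9.07% called higher and 15.8% called lower. The 6 that rose were Acat2 (log2 fold change 0.82), Scd1 (1.21), Ebp (0.81), Lpin1 (0.81), Stard4 (0.58) and Nsdhl (0.57), and Acly fell by 0.50, with limma adjusted p between 0.00851 and 0.0478. Hmgcs1 (adjusted p = 0.0641), Cyp51 (0.069), Mvd (0.0573) and Acacb (0.0594) did not pass in that limma fit. Other single libraries also set the size of some members. Without knockout replicate 1 the log2 fold change was 0.24 for Acss2, 0.35 for Ebp, 0.06 for Mvd, 0.14 for Mvk, 0.15 for Fads2, -0.11 for Fdps and -0.15 for Acly. Without knockout replicate 2 it was 0.45 for Acacb, 0.15 for Pmvk and -0.13 for Fasn. Without floxed replicate 1 it was 0.38 for Hmgcs1 and 0.40 for Cyp51, and without floxed replicate 3 it was 0.15 for Pmvk and -0.12 for Fasn. Without knockout replicate 3 it was 0.84 for Acss2, 0.57 for Mvd and -0.35 for Fasn. Knockout replicate 3 was left out for lying near the floxed ones, a choice that by itself raises such counts.

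Markers of kidney cell types moved with these groups. All 14 proximal tubule markers were above 0, 9 of them at an unadjusted limma p under 0.05. Among all genes tested 34.6% were above 0, and 8.38% were higher at this p. The median of the 14 markers, measured from the floxed means, was 2.01, 1.79 and 0.22 in knockout and -0.32, 0.06 and 0.27 in floxed libraries. Their summed level was 5968 to 45470 FPKM in knockout and 6016 to 15090 FPKM in floxed libraries. The androgen-regulated gene Kap gave 3405 to 37353 FPKM of it in knockout and 4383 to 12948 FPKM in floxed libraries, and Pck1 (limma adjusted p = 0.0547) and Slc5a12 (0.0798) had the smallest p. The 13 tested markers of the loop and distal nephron were all above 0, with sums of 1297 to 3185 FPKM in knockout and 749.4 to 1030 FPKM in floxed libraries. All 10 fibroblast markers were below 0 (sums 106.6 to 358.7 FPKM in knockout, 556.6 to 699.8 FPKM in floxed), as were 9 of 10 tested macrophage markers (768.9 to 1556 FPKM in knockout, 1896 to 2689 FPKM in floxed) and 8 of 8 endothelial markers (107.0 to 123.4 FPKM in knockout, 122.8 to 212.6 FPKM in floxed). Smallest p values were those of Klk1 (limma adjusted p = 0.0686) and Scnn1a (0.0719) in the distal list, and Dpt (0.0446) and Dcn (0.0547) among fibroblast markers. Among macrophage markers they were those of Ms4a7 (limma adjusted p = 0.0446) and C1qc (0.0599), and among endothelial markers Eng (0.0633) and Emcn (0.130). Dpt and Ms4a7 thus passed and fell. Neither passed with the other pseudocounts or filters, under median-ratio or quantile scaling, without the variance trend or with a replicate block. No gene was called lower in those settings. None of the marker lists above has a marker at 0 in every library. Their part in the sterol and fatty acid values was not tested, and in whole tissue fewer cells of a type and less RNA per cell cannot be told apart. Fat tissue, which is rich in Fasn, Acly and Scd1, was looked for by its markers. The adipocyte genes Adipoq, Plin1 and Cfd read at most 0.1 FPKM in any library, and 2 adipocyte genes were tested, Plin4 (limma adjusted p = 0.626) and Fabp4 (0.803). The sum of 9 listed adipocyte genes, 61.78 to 119.0 FPKM in knockout and 49.09 to 88.55 FPKM in floxed libraries, came mostly from Fabp4, which other cells also express.

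**Figure D4:**
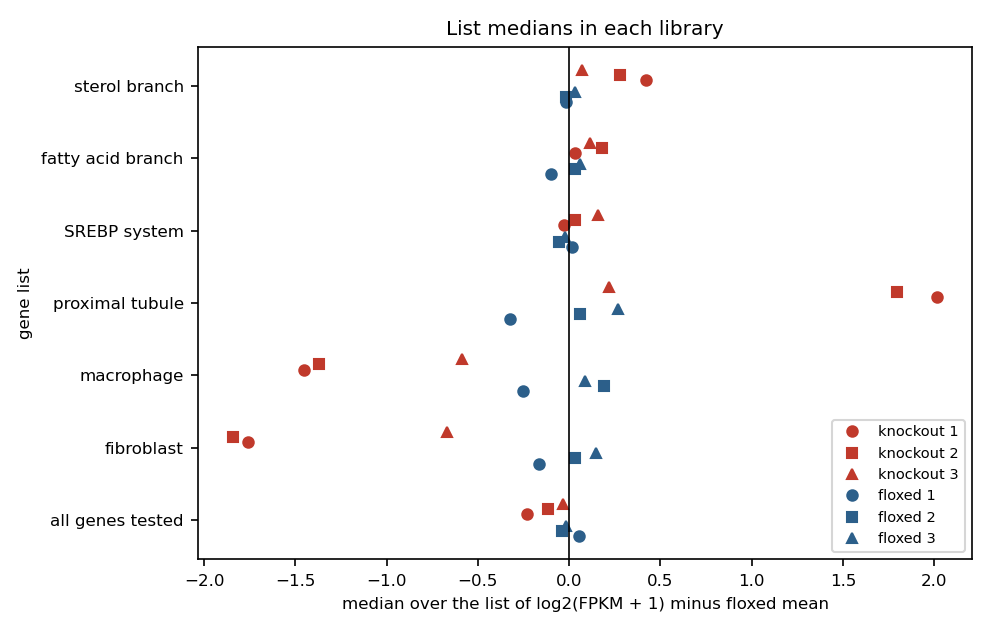
Each symbol is 1 library (knockout above floxed in each row) and gives the median over a gene list of log2(FPKM + 1) minus the floxed mean. The sterol median is highest in knockout replicate 1 (0.42) and lowest among knockouts in replicate 3 (0.07), and the proximal tubule median is placed likewise (2.01 and 0.22), while the SREBP median is highest in knockout replicate 3 (0.16).

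Genes around the pathway were counted from lists of the neighbouring steps, and in each of them 0 genes passed the limma threshold. Of 13 other genes of sterol synthesis and SREBP processing 8 were above 0, with a median of 0.07. Among all genes tested 34.6% were above 0, with a median of -0.12. Ggps1, which diverts farnesyl units to geranylgeranyl diphosphate, averaged 9.65 ± 1.02 FPKM in knockout and 11.4 ± 0.560 FPKM in floxed kidneys, with every knockout library below every floxed one (limma adjusted p = 0.295).

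Sterol uptake, efflux and storage showed values on both sides, with 7 of 18 tested genes above 0 and a median of -0.22. Lcat, which esterifies cholesterol on lipoproteins, read 1.42, 0.98 and 0.71 FPKM in knockout and 3.73, 2.60 and 2.65 FPKM in floxed kidneys (limma adjusted p = 0.0651). The lipoprotein receptor Lrp1 read 4.44, 4.2 and 10.33 FPKM in knockout and 12.39, 15.59 and 16.11 FPKM in floxed kidneys (limma adjusted p = 0.0952). Both had every knockout library below every floxed one. At an unadjusted limma p under 0.05 there stood 4 genes of this list on each side. Among all genes tested 8.38% were higher and 16.3% lower at this p. The 4 with higher means in knockout, named after their values were seen, were the cholesterol ester hydrolases Nceh1 (log2 fold change 0.50, limma adjusted p = 0.140) and Lipa (0.47, 0.166), the lipoprotein receptor Vldlr (0.33, 0.182) and the sterol carrier Stard5 (0.42, 0.198). The cholesterol exporters Abca1 and Abcg1 are named here after their values were seen. Abca1 averaged 10.3 ± 2.0 FPKM in knockout and 15.5 ± 0.851 FPKM in floxed kidneys (limma adjusted p = 0.104). Abcg1 averaged 3.79 ± 0.800 FPKM in knockout and 6.38 ± 0.605 FPKM in floxed kidneys (limma adjusted p = 0.0990). Abca1, Abcg1 and Lrp1 are also expressed by macrophages, whose part in these values was not tested beyond the marker sums given above.

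Of 19 tested genes in other steps of fatty acid, elongation and glycerolipid synthesis 17 were above 0, with a median of 0.28. In 8 of the 19 the groups did not overlap, all higher in knockout. Among all genes tested 34.6% were above 0, and the groups did not overlap for 10.0% with knockout higher and 21.7% with it lower. Dgat2, which makes triglyceride, averaged 39.5 ± 13.6 FPKM in knockout and 17.0 ± 1.91 FPKM in floxed kidneys (log2 fold change 1.12, SE 0.253, limma adjusted p = 0.0764). Oxsm, the condensing enzyme of mitochondrial fatty acid synthesis, read 8.63, 7.42 and 7.52 FPKM in knockout and 5.32, 5.32 and 4.87 FPKM in floxed kidneys (limma adjusted p = 0.0846). Of 12 other regulators 8 were above 0. Ppara, the receptor that switches on fatty acid oxidation, read 14.80, 16.40 and 9.78 FPKM in knockout and 3.72, 6.32 and 5.21 FPKM in floxed kidneys (limma adjusted p = 0.0627). Prkaa2, a catalytic subunit of the kinase AMPK that phosphorylates both acetyl-CoA carboxylases, read 18.35, 18.08 and 12.87 FPKM in knockout and 8.35, 8.14 and 9.70 FPKM in floxed kidneys (limma adjusted p = 0.0651). In each of these last 4 genes all knockout libraries lay above all floxed ones.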

How the data were processed

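Whole-kidney RNA was measured in 6 libraries. The authors deposited 1 FPKM value per gene and library, per the file headers. The submitters' processing notes name build mm9, and aligner, counting, annotation, strand and filters were not given in the sources used here. Groups and replicate numbers came from sample titles. Labels do not say that libraries came from separate mice, so the p-values reflect variation among these samples, which may be technical. No pair of libraries was identical.

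FPKM is relative to all mapped fragments, so abundant genes such as Kap can shift all others. The 13390 genes that reached 1 FPKM in 3 or more libraries were compared as log2(FPKM + 1) with limma 3.58.1 (R 4.3.3). Its fit held group alone, used a trended variance and two-sided tests, and was adjusted by Benjamini-Hochberg over all genes tested at 0.05. The procedure was checked on simulated data of 13255 genes, where 86% of log2 changes of 2 and 95% of changes of 3 were recovered. There were 10 false calls. The largest change of a member was 1.11 (Scd1), so the check does not show how many changes of that size would be found. Python 3.11.15, pandas 2.3.3, numpy 2.4.6, scipy 1.17.1 and matplotlib 3.10.9 did the rest. Depth was estimated from values of transcripts of 300 to 2000 nucleotides, of which 64.5% to 67.5% came within 0.2 of whole fragments. Overlapping exons were taken from GENCODE M21 on GRCm38, which differs from mm9, for names and overlap lengths only. Members and lists were chosen with earlier results of these data known, so nothing is adjusted over a list alone. Every member is reported, and library values are given for members with the smallest p or largest change in their role group and for those that head the pathway, and for other members that show how replicates differ. From related and marker lists the 2 genes with the smallest p are named, except for an item that is not reported here. Alternatives were other pseudocounts, filters and scalings, limma without trend, array weights, a replicate block and leaving out each library.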

Additional observations from a re-analysis of the deposited data

How the results depend on the processing

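Counts of calls over all genes tested hung on the setting. Against 9 genes by limma as described, 1 gene was called with a pseudocount of 0.1, with 0.01, without the filter on low values, with a mean FPKM of at least 5, under median-ratio scaling, under quantile normalization and without the variance trend. In each of those settings the called gene was higher in knockout kidneys. Array weights, which down-weight outlying libraries, called 1456, and leaving out each library in turn gave 0 to 3293, the highest without knockout replicate 3. TPM scaling called 10. A replicate block, which pairs equal replicate numbers, called 2 genes, both higher in knockout kidneys, and 0 members. Correlations of same-numbered deviations were -0.126, -0.07 and 0.034, and those of other pairs ran from -0.122 to 0.135. With 3 libraries a group these values cannot show whether equal numbers shared anything more than the number. The count of members called was 3 with array weights (Scd1, Stard4 and Acat2), 0 to 7 on leaving out a library, and 0 elsewhere. The sterol median of 0.25 was 0.391 under quantile normalization and 0.115 (without knockout replicate 1) to 0.291 with a library left out. The fatty acid median of 0.18 was 0.083 with a mean FPKM of at least 5, 0.315 under median-ratio scaling and 0.102 to 0.236 with a library left out.

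Members that turned sign in some setting had log2 fold changes of -0.167 (Acaca) to 0.135 (Tm7sf2) by limma as described. Median-ratio and TPM scaling multiply all genes of a library by 1 factor and so shift all genes: the all-gene median was -0.12 in FPKM, 0.001 under median-ratio scaling, -0.005 under quantile normalization and -0.18 under TPM scaling. Turns of sign under those scalings go with that shift. Under median-ratio scaling they were Msmo1 (0.101), Srebf1 (0.014), Srebf2 (0.112) and Fads1 (0.124), and under quantile normalization Msmo1 (0.078), Srebf1 (0.009), Srebf2 (0.062) and Acaca (0.08). Under TPM scaling Sqle gave -0.046 and Scap -0.038, and with array weights Idi1 gave -0.046, Sqle -0.008, Scap -0.031 and Fads1 0.011. With a library left out, the ranges that crossed 0 were -0.285 to 0.383 for Idi1, -0.156 to 0.208 for Sqle, -0.026 to 0.24 for Tm7sf2, -0.086 to 0.053 for Msmo1, -0.01 to 0.286 for Sc5d, -0.11 to 0.093 for Srebf2, -0.077 to 0.085 for Scap, -0.073 to 0.025 for Fads1 and -0.431 to 0.013 for Scd2. The cause of the turns under quantile normalization and array weights was not tested. The filter at a mean FPKM of 5 left 32 members. FPKM hold no counts, so no count test was run, and 3 libraries a group limit what a single gene can show.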
